A study of Mus musculus with 6 samples.

Results

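Cytosolic ribosomal protein genes encode the protein subunits of the ribosomes that translate nuclear messenger RNA in the cytoplasm. They were taken from the deposited gene table by symbol: Rpl or Rps followed by a number (with the endings a, x, y or l and a further digit allowed), Rplp0 to Rplp2, and Rpsa. The S6 kinase genes (Rps6k names), Rps27l and names of pseudogenes were left out. This rule, which used no measured value, found 82 of the 22274 genes in the table, 51 of the large subunit and 31 of the small subunit. The deposited description called all 82 a ribosomal protein, and 81 of the 82 stood among the 147 genes that the deposited annotation placed in the Ribosome pathway.

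RNA was measured by mRNA sequencing in whole liver of C57 mice. In 3 libraries the mice had received Ad-Dyrk1b, an adenovirus that overexpresses mouse Dyrk1b, a protein kinase, and in 3 they had received Ad-EGFP, the control adenovirus. No uninfected liver was among the samples used here, and both groups received a virus. The labels do not give age, sex, dose or time after infection. Nor do they name the mouse behind each sample, so the 3 samples of a group may share an animal, and the p-values then cover only sample-to-sample spread, part of which can be technical.

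Each cytosolic ribosome is assembled from a large (60S) and a small (40S) subunit, and cells make the proteins of both in near-equal amounts, a free ribosomal protein being unstable. The messenger RNAs begin with a run of pyrimidines (the TOP motif), through which the kinase mTOR and the RNA-binding protein Larp1 control their translation and stability, while Myc and Max with their antagonists of the Mxd family bear on their transcription. In liver, which secretes most plasma proteins, ribosomes make up a large part of the cell's RNA and protein, and their number follows feeding, growth and injury.

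Libraries held 17326516 to 20024888 counts, and a count of 3, the limit that a count of 0 allows, corresponded to 0.150 to 0.173 CPM (counts scaled to the total of the library). Dyrk1b itself had FPKM values (fragment counts that the authors scaled to gene length and library size) of 62.2, 101 and 96.5 in Ad-Dyrk1b replicates 1, 2 and 3 and of 3.81, 4.97 and 4.16 in Ad-EGFP, so each library matched its label. Summed CPM of 6 hepatocyte markers were 61338 to 76468 in Ad-Dyrk1b and 76985 to 80566 in Ad-EGFP, without overlap. All marker sums here were scaled to library totals alone, and the small gap between 76468 and 76985 depends on that scaling. Alb, the highest of the 6 in FPKM, had a log2 fold change (Ad-Dyrk1b over Ad-EGFP) of -0.10. Estimates were above 0 for 2 of the 6, Tat (0.41) and Apoa1 (0.005). Sums for 6 erythroid markers were 886, 1044 and 3694 in Ad-Dyrk1b replicates 1, 2 and 3 and 528, 716 and 875 in Ad-EGFP. Ad-Dyrk1b replicate 3 stood far above the rest, and the gap between 886 and 875 was small. Sums for 8 T and NK cell markers (30.1 to 43.4 against 19.2 to 27.0) were also higher in all 3 Ad-Dyrk1b libraries. None of these 20 markers was at 0 in all libraries, and 1 of the 19 tested passed the test (Gzmb, higher). Of the 7 tested T and NK cell markers, 6 had estimates above 0, the lowest Cd3d at 0.05, and Klrb1c had -0.12. Sums for B and plasma cell, Kupffer and monocyte, neutrophil, endothelial, stellate and cholangiocyte markers overlapped between the groups, though 2 of the 6 Kupffer and monocyte markers, Cd68 and Ly6c2, passed as higher (in 1 and 0 of the 6 fits with a library left out, against 6 for Gzmb). The other Kupffer and monocyte markers had estimates of 0.77 (Clec4f), 0.22 (Csf1r), 0.08 (Adgre1) and -0.36 (Lyz2). The part of these cells in the ribosomal protein values was not tested, and in whole tissue fewer cells of a type and less RNA per cell cannot be told apart.

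Promoter sequences were matched by symbol in a RefSeq table (build GRCm38.p6, 250 bases before to 50 bases after each annotated start), which held 73 promoters of 62 of the 82 genes. The letters TCTCGCGA, a near-palindrome found in many housekeeping promoters, are shown because, of the strings searched, the ratio of their share here to that in all promoters was the highest. Read on both strands, they stood in 12 of the 73 promoters (16.4%), against 1.0% of all 32851 promoters and 2.0% of the 13389 promoters of tested genes. None of the other strings searched is contained in it. The 11 genes with a match are given as windows on the strand of the gene, with the match in capitals (TCTCGCGA, or TCGCGAGA where it reads from the other strand), from the farthest upstream of the annotated start to the nearest:
Rpl35, chr2:39005303-39005330: gtgttgctcaTCGCGAGActcagtttcc
Rps15a, chr7:118116196-118116223: gaccatgaagTCTCGCGAtagcgcttcc
Rpl12, chr2:32961648-32961675: ggccagcggtTCTCGCGAgagctgagct
Rpl7a, chr2:26910745-26910772: gggcgcctgcTCTCGCGAtatctgcggc
Rps6, chr4:86857401-86857428: cgccggctgtTCTCGCGAgaacttagag
Rpl10a, chr17:28328524-28328551: aacgggcaacTCTCGCGAgaacgcgggc
Rps19, chr7:24884555-24884582: gtttagccgcTCTCGCGAgcactccgaa
Rpl26, chr11:68901530-68901557: gctccgagacTCTCGCGAgatctcgcgg
Rps3a1, chr3:86142677-86142704: ccagctagtgTCGCGAGAttcttaaagc
Rpl27a, chr7:109519164-109519191: gcctgctaccTCGCGAGActtcgtgagc
Rps28, chr17:33824546-33824573: ccgcgtgcggTCTCGCGAgagcgaaagt
Among tested genes the median log2 fold change (Ad-Dyrk1b over Ad-EGFP) was 0.35 for the 11 with the match and 0.23 for the 48 with a promoter in the table and no match, which is a description with no test.

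The other strings searched are given by share. CCGGAAG, a core letter string of ETS factor sites, stood in 35.6% of these promoters, 16.4% of the promoters of tested genes and 8.9% of all promoters. AAGATGG, a YY1-type string, stood in 16.4%, 6.8% and 6.3% in the same order. CTTTCC, a short pyrimidine stretch, stood in 49.3%, 26.6% and 26.6%. TATAAA was in 9.6%, 7.8% and 13.6%, CCAAT in 28.8%, 37.7% and 37.4%, GGGCGG in 60.3%, 59.9% and 35.7%, and CACGTG, the E-box that Myc and Max bind, in 11.0%, 9.6% and 7.2%. The median log2 fold change of tested genes with and without CCGGAAG was 0.27 (24 genes) and 0.26 (35 genes), and with and without CACGTG 0.20 (6 genes) and 0.28 (53 genes). For CCAAT the medians were 0.33 (18 genes) and 0.24 (41 genes), and for CTTTCC 0.23 (30 genes) and 0.31 (29 genes). For AAGATGG they were 0.27 (10 genes) and 0.26 (49 genes), and for TATAAA 0.26 (7 genes) and 0.27 (52 genes). For GGGCGG they were 0.28 (37 genes) and 0.26 (22 genes). None of these differences was tested, and gaps like that of the near-palindrome also stood at CCAAT and, reversed, at CTTTCC. One promoter stretch is shown whole, that of Rps15a, the member called higher that holds the near-palindrome, for the 100 bases that end just before its most upstream annotated transcript start (chr7:118116189-118116288, minus strand). Capitals mark, in reading order, a GC box and a CCAAT box on the opposite strand and the near-palindrome:
Rps15a: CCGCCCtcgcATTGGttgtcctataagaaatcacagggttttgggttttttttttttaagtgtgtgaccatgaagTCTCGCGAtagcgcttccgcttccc
A match is a string of letters and not evidence that a factor binds there.

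Ribosomal protein messages were abundant in these livers, and their levels differed between genes far more than between groups. Over the 79 genes that passed the filter on low counts, the mean FPKM per gene had a median of 282 in Ad-EGFP, from 33.0 for Rpl7l1 to 735.5 for Rps2. In Ad-Dyrk1b the median was 314, from 33.2 for Rpl7l1 to 849 for Rps2. Gene order was nearly the same in both groups (Spearman's rho 0.99 over 79 genes measured in the same libraries, a description). All the ribosomal protein genes together took 2.28%, 1.80% and 2.17% of the counts in Ad-Dyrk1b replicates 1, 2 and 3, and 1.77%, 1.59% and 2.05% in Ad-EGFP. The means were 2.08% ± 0.25 and 1.80% ± 0.23 (SD, n = 3 each), a ratio of 1.15, and the groups overlapped, since Ad-EGFP replicate 3 lay above Ad-Dyrk1b replicate 2.

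All 79 tested genes had a fold change above 1, but the changes were small and few passed the test. In edgeR's quasi-likelihood test, adjusted over all 13201 tested genes, 4 of the 79 rose in Ad-Dyrk1b (5.06%), against 7.36% of all tested genes called higher. None fell, against 4.81% of all tested genes called lower. No gene of the 79 was lower at an unadjusted p under 0.05 either, and DESeq2 and limma-voom called none lower. The median log2 fold change was 0.29 (1.22-fold), against -0.005 for all tested genes, and the range ran from 0.03 (1.02-fold) to 0.54 (1.45-fold). Standard errors of the single genes were 0.10 to 0.23, with a median of 0.13. Of the 79, 38 (48.1%) were higher at an unadjusted p under 0.05, where 14.9% of all tested genes were. These genes share 6 libraries and vary together, so their number is not a number of independent observations. In CPM after TMM scaling (edgeR's trimmed mean of M-values factors, which assume that most genes do not change), all 3 Ad-Dyrk1b libraries lay above all 3 Ad-EGFP libraries in 27 of the 79 (34.2%; 16.8% of all tested genes), and in none did they lie below. In the deposited FPKM all Ad-Dyrk1b values lay above all Ad-EGFP values for Rplp1 and Rps15a, 2 of the 79, where 10.9% of all tested genes did so. They lay below for 0 of the 79, where 21.9% of all tested genes did, so over all genes the FPKM leaned towards lower values in Ad-Dyrk1b.

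**Figure D1:**
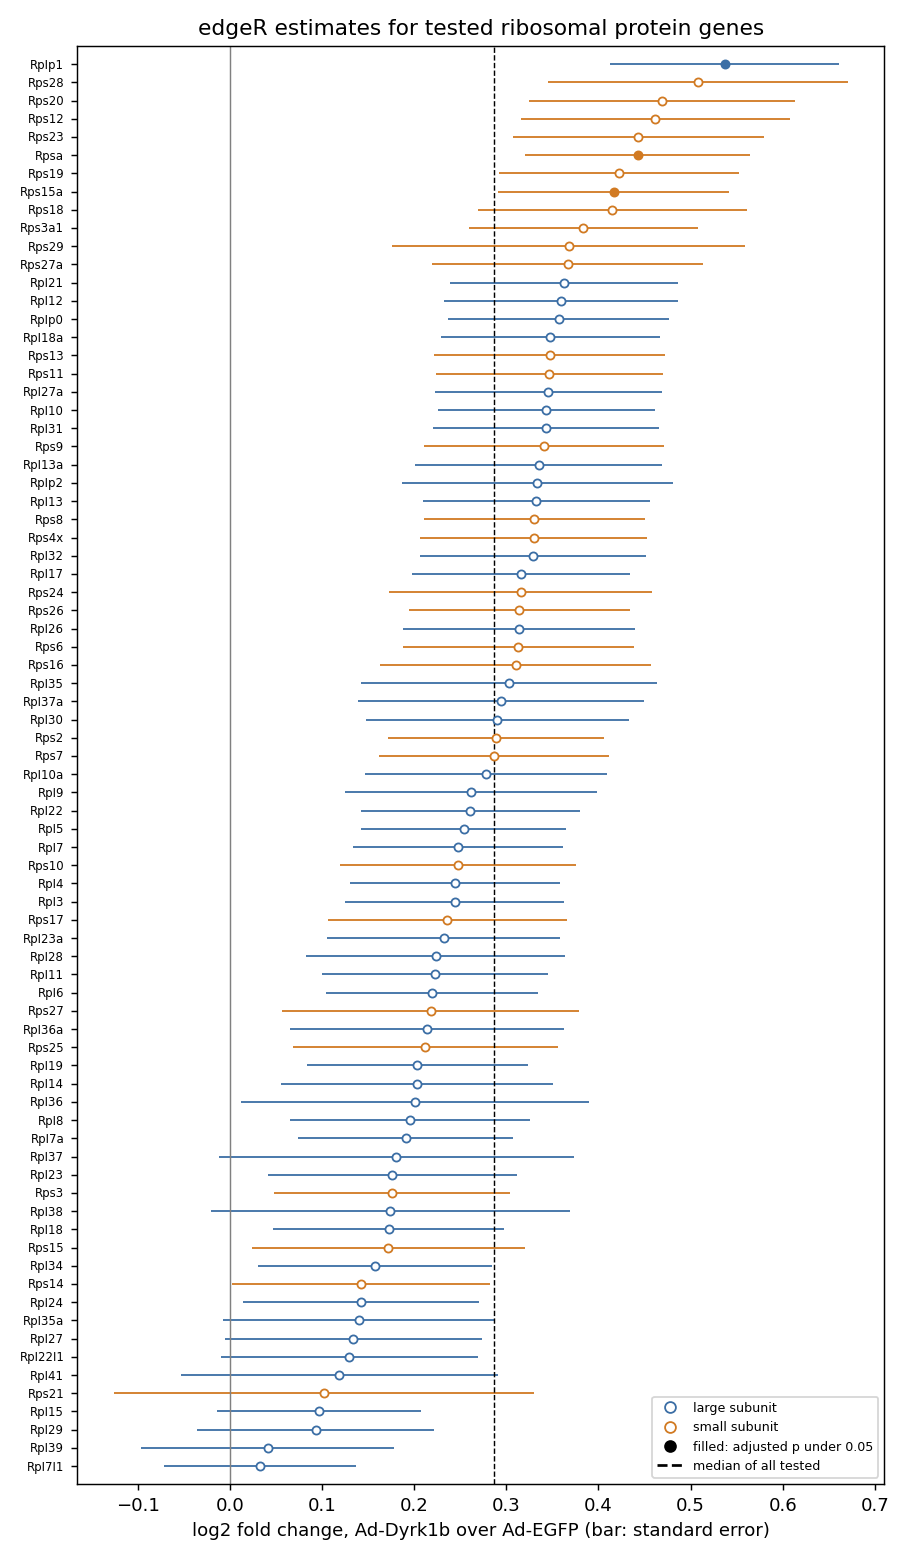
Tested ribosomal protein genes (78 of the 79) are drawn with their log2 fold change (Ad-Dyrk1b over Ad-EGFP, horizontal axis) and standard error as a bar, large subunit in blue and small subunit in orange, with filled points for an adjusted p under 0.05. All points lie to the right of 0, around the dashed median of 0.29 over all 79, and 3 are filled, with small-subunit genes in most of the highest places.

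Within a library, the genes lay high or low together. Centred on each gene's mean, the median log2 level over the 79 genes was 0.24, -0.01 and 0.21 in Ad-Dyrk1b replicates 1, 2 and 3 and -0.10, -0.37 and 0.03 in Ad-EGFP. Ad-EGFP replicate 2 was the lowest of the 6 libraries in 75 of the 79 genes, and Ad-Dyrk1b replicate 2 was the lowest of its group in 78. Ad-EGFP replicate 3 was the highest of its group in 69 genes and lay above Ad-Dyrk1b replicate 2 in 52. Without Ad-EGFP replicate 2, 69 of the 79 genes were above 0, the median log2 fold change was 0.19 and no gene was called. Without Ad-Dyrk1b replicate 1 or 3 only Rplp1 was called, and without Ad-EGFP replicate 1 only Rps28. Leaving out Ad-Dyrk1b replicate 2 gave 6 calls and a median of 0.37, and leaving out Ad-EGFP replicate 3 gave 7 calls and a median of 0.38. With all 6 libraries 7.36% of all tested genes were called higher. Such shares are not given for the fits with a library left out, so these counts are not set against a background. RNA quality values for these libraries were not analysed here.

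**Figure D2:**
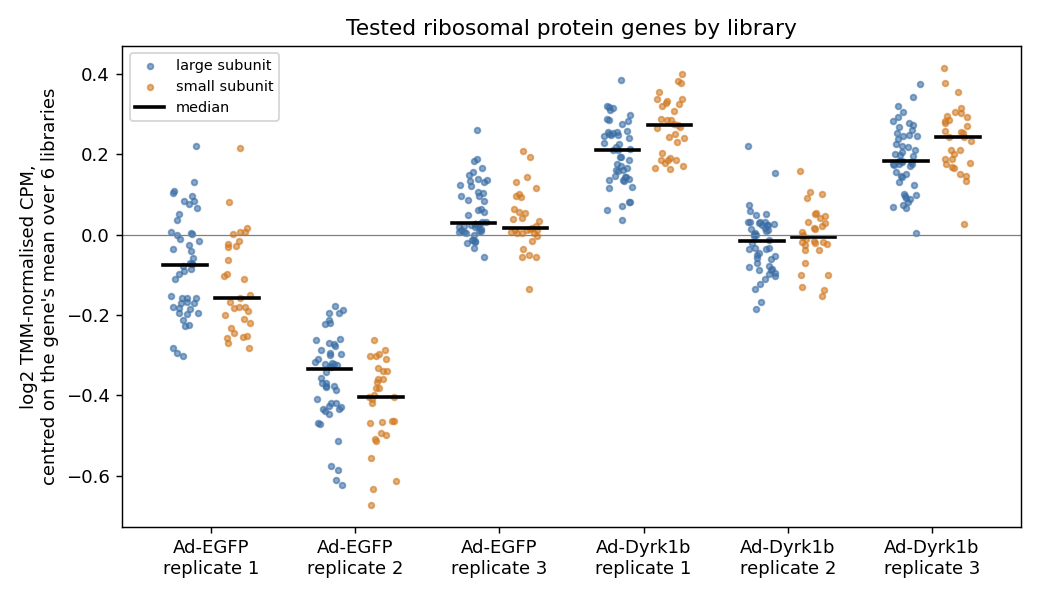
Each point is a tested ribosomal protein gene in a library, as log2 CPM after TMM scaling minus the gene's mean over the 6 libraries (vertical axis), split into large (blue) and small subunit (orange), with black bars for medians. Ad-EGFP replicate 2 sits lowest, with a median of -0.37 over all 79 genes, and Ad-Dyrk1b replicates 1 and 3 sit highest, at 0.24 and 0.21, while Ad-Dyrk1b replicate 2 is near Ad-EGFP replicate 3.

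The small subunit had the higher median. Its median log2 fold change was 0.33 over 31 genes, with 3 called higher (9.68%), 21 at an unadjusted p under 0.05 (67.7%) and 13 with separate groups (41.9%). The large subunit had a median of 0.24 over 48 tested genes, with 1 called higher (2.08%), 17 at an unadjusted p under 0.05 (35.4%) and 14 with separate groups (29.2%). Over all tested genes these shares were 7.36%, 14.9% and 16.8%, and the difference between the subunits was not tested. A ratio within each library does not depend on scaling: small-subunit genes took 41.0%, 40.2% and 40.5% of the ribosomal protein counts in Ad-Dyrk1b replicates 1, 2 and 3, and 39.2%, 39.0% and 39.7% in Ad-EGFP. The means were 40.6% ± 0.40 and 39.3% ± 0.36 (SD, n = 3 each), and the groups did not overlap. Scaling every library to its own ribosomal protein counts, an alternative added after the data were seen, removes the shift the genes share by construction and asks only whether a gene differed from the others. None passed then (0 genes at an adjusted p under 0.05 and 0 at an unadjusted p under 0.05 in edgeR, smallest unadjusted p 0.147 for Rplp1 and Rpl7l1). The standard errors of Rplp1 and Rpl7l1 were 0.17 and 0.17 in this fit, against 0.12 and 0.10 with TMM factors. The absence of calls therefore does not show that no gene differed from the others.

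**Figure D3:**
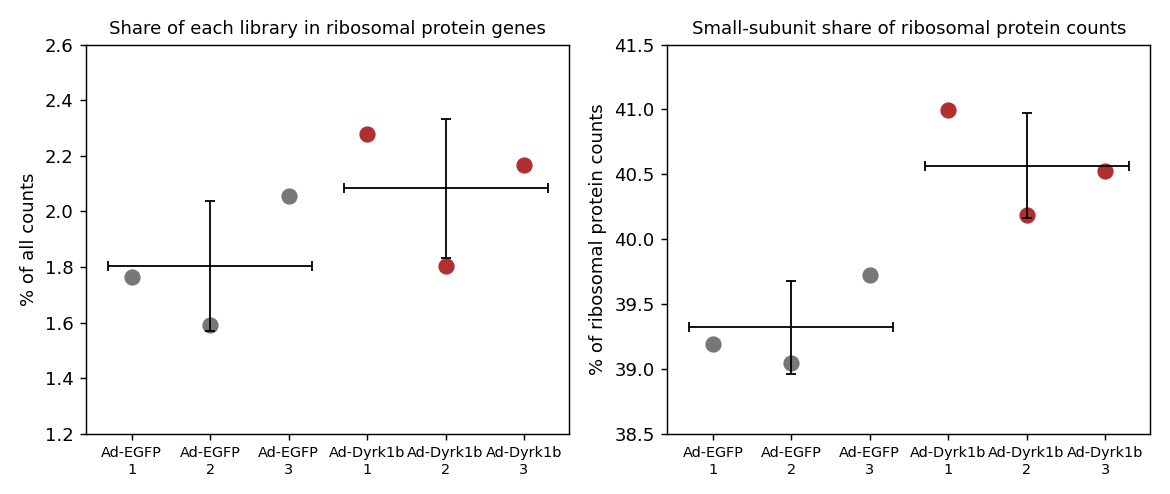
The left panel gives the percentage of all counts that fell in ribosomal protein genes, the right panel the percentage of those counts that fell in small-subunit genes, for each library (points; horizontal bars are means, vertical bars SD, n = 3; neither vertical axis starts at 0). On the left the groups overlap, with means of 2.08% and 1.80%, and on the right the 3 Ad-Dyrk1b libraries, at 40.2% to 41.0%, lie above the 3 Ad-EGFP libraries, at 39.0% to 39.7%.

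The acidic stalk of the large subunit, built by Rplp0 with pairs of Rplp1 and Rplp2, recruits the elongation factors to the ribosome, and it held the gene with the largest change. Rplp1 (ENSMUSG00000007892, chr9:61913284-61914542, GRCm38, GENCODE M21) had FPKM values of 703, 574 and 675 in Ad-Dyrk1b replicates 1, 2 and 3 and of 453.5, 418 and 553 in Ad-EGFP. The groups did not overlap, and the gene was also among the 5 with the highest FPKM. It rose by 0.54 ± 0.12 on the log2 scale (SE; 1.45-fold, edgeR adjusted p = 0.0152). Without Ad-EGFP replicate 1 or 2 the adjusted p of Rplp1 was 0.0547 and 0.0524. Rplp0 (chr5:115559467-115563727) had 503, 426 and 508 FPKM in Ad-Dyrk1b and 359, 379 and 451 in Ad-EGFP, and its log2 fold change of 0.36 ± 0.12 did not pass (edgeR adjusted p = 0.0710). Rplp2 (chr7:141447370-141451585) had 259, 163 and 201 FPKM against 170, 143 and 207, and the groups overlapped (0.33 ± 0.15, edgeR adjusted p = 0.161).

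The small subunit held the other 3 calls, of which Rpsa and Rps15a are described. Rpsa (ENSMUSG00000032518, chr9:120127689-120132369), which also serves as a laminin receptor at the cell surface, had FPKM values of 489, 379 and 462 in Ad-Dyrk1b and of 347.5, 309 and 406 in Ad-EGFP. In FPKM Ad-EGFP replicate 3 lay above Ad-Dyrk1b replicate 2, whereas in TMM-scaled CPM the groups were apart, at 684 to 793 and 498 to 621. Rpsa was higher by 0.44 ± 0.12 in log2 units (edgeR adjusted p = 0.0337). Rps15a (ENSMUSG00000008683, chr7:118104372-118116188), a core protein of the small subunit whose promoter is printed above, had 228, 179 and 173.5 FPKM in Ad-Dyrk1b and 127.5, 164 and 162 in Ad-EGFP. All Ad-Dyrk1b values lay above all Ad-EGFP values in both units, but within Ad-EGFP the order turned: replicate 2 was highest in FPKM and lowest, at 102, in TMM-scaled CPM. Rps15a rose by 0.42 ± 0.13 in log2 units (edgeR adjusted p = 0.0476), closest to the threshold. Rpsa was no longer called without replicate 1 or 3 of Ad-Dyrk1b and without replicate 1 or 2 of Ad-EGFP, with an edgeR adjusted p up to 0.110. Rps15a was called in 1 of its 6 such fits, the one without Ad-EGFP replicate 3 (edgeR adjusted p = 0.0188), and reached 0.144 at most. On log2(FPKM + 1) with limma-trend no ribosomal protein gene was called.

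**Figure D4:**
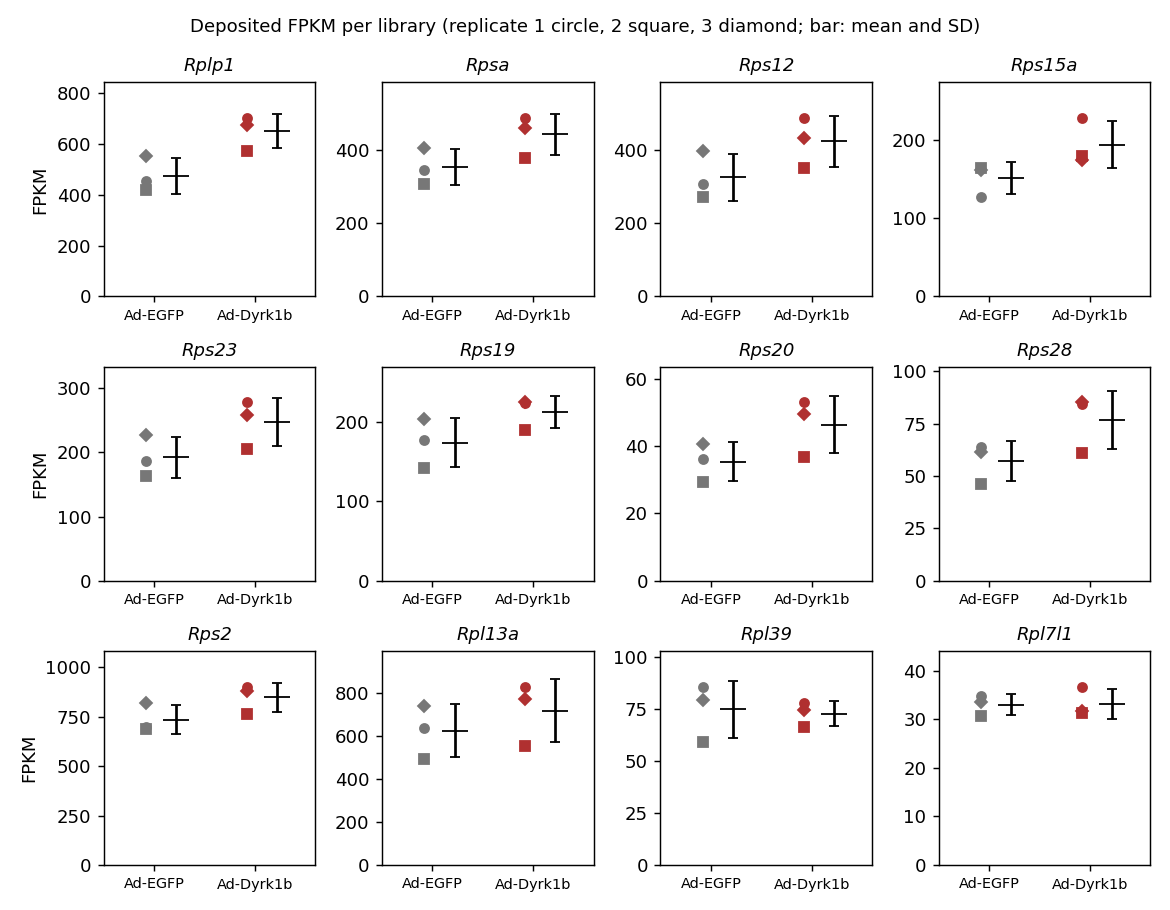
Deposited FPKM (vertical axes, starting at 0) for 12 ribosomal protein genes in each library, Ad-EGFP in grey and Ad-Dyrk1b in red, with the group mean and SD (n = 3) as bars. Only Rplp1 and Rps15a have all red points above all grey ones, and Rpl39 and Rpl7l1, with means of 72.8 against 74.8 and 33.2 against 33.0, have group means close together.

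Next in order of p came small-subunit genes that did not pass. Rps23, a protein of the decoding centre, had 278, 205 and 259 FPKM in Ad-Dyrk1b and 187, 164 and 227 in Ad-EGFP (log2 fold change 0.44 ± 0.14, edgeR adjusted p = 0.0518). Rps19, known for its mutations in Diamond-Blackfan anaemia, had 224.6, 189.7 and 225 FPKM against 177, 142 and 204 (0.42 ± 0.13, edgeR adjusted p = 0.0524). In TMM-scaled CPM both genes had separate groups. Rps20 and Rps28 had larger estimates with larger errors, 0.47 ± 0.14 (edgeR adjusted p = 0.0542) and 0.51 ± 0.16 (edgeR adjusted p = 0.0618), and are among the 5 genes of lowest FPKM. The FPKM of Rps20 was 53.02, 36.8 and 49.4 in Ad-Dyrk1b and 36.15, 29.35 and 40.7 in Ad-EGFP, and that of Rps28 was 84.4, 60.8 and 85.2 against 63.8, 46.4 and 61.3. Rps28 overlaps another coding gene, Kank3, so reads can be shared between them. DESeq2 on the same counts called 18 of the ribosomal protein genes higher, among them these 4, where it called 8.18% of the genes it tested higher. In the authors' deposited table, adjusted p-values marked 15 of the 82, which had a value under 0.05 and were higher, and 0 were lower, where 4.65% of all genes were higher. In edgeR, 9 were called with no filter on low counts (5.93% of all genes tested so) and 6 with RLE scaling factors (7.58%).

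At the other end, several genes had estimates near 0. Rpl39 (chrX:37082520-37085402), a small protein of the peptide exit tunnel, had 77.9, 66.3 and 74.3 FPKM in Ad-Dyrk1b and 85.8, 59.3 and 79.2 in Ad-EGFP, with complete overlap (log2 fold change 0.04 ± 0.14, edgeR adjusted p = 0.872). Its estimate turned negative with total-count scaling (-0.04), in all 3 fits of FPKM (-0.02) and without Ad-EGFP replicate 2 (-0.11). Rpl7l1, a relative of Rpl7, had 36.7, 31.2 and 31.6 FPKM in Ad-Dyrk1b and 34.8, 30.6 and 33.6 in Ad-EGFP (0.03 ± 0.10, edgeR adjusted p = 0.864). It turned negative with total-count scaling (-0.05) and without Ad-EGFP replicate 2 (-0.04). Rpl29, Rpl15 and Rps21 had estimates of 0.09, 0.10 and 0.10. Rps21 had TMM-scaled CPM of 47.1, 34.2 and 38.3 in Ad-Dyrk1b and 43.7, 24.3 and 43.5 in Ad-EGFP, lowest in Ad-EGFP replicate 2. Rpl29 was also lowest there, with 191, 162 and 185 against 177, 138 and 189. The small-subunit genes lowest in order after Rps21 were Rps14 at 0.14, Rps15 at 0.17 and Rps3 at 0.18.

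The genes of highest FPKM were Rps2, Rpl13a, Rps18, Rps24 and Rplp1. Rps2, a protein of the mRNA entry channel, had 903, 764 and 878.5 FPKM in Ad-Dyrk1b and 698, 687 and 821 in Ad-EGFP, and differed by 0.29 ± 0.12 in log2 units (edgeR adjusted p = 0.127). Rpl13a, which can leave the ribosome to silence inflammatory messages, had 828, 553 and 769 FPKM against 636, 494 and 739 (0.34 ± 0.13, edgeR adjusted p = 0.122). Rps18, at the head of the small subunit, had 674, 590.5 and 736.5 FPKM against 554, 419 and 615 (0.42 ± 0.15, edgeR adjusted p = 0.0845). Rps24 had 742, 532 and 641 FPKM against 523, 460.4 and 646 (0.32 ± 0.14, edgeR adjusted p = 0.167). In FPKM the groups overlapped for Rps2, Rpl13a, Rps18 and Rps24. In TMM-scaled CPM they were apart for Rps2 and Rps18 and overlapped for Rpl13a and Rps24. At the low end stood Rpl7l1, Rps20, Rps28, Rpl39 and Rpl22l1. FPKM is per length, and the length implied by the counts and FPKM ran from 345 bases for Rps27 to 3706 for Rps20, with 2515 for Rpl7l1. The low FPKM of Rps20 and Rpl7l1 thus comes with the longest implied lengths. Rps28, Rpl39 and Rpl22l1 had short ones, of 384, 612 and 533 bases. Across the 79 genes, Spearman's rho was 0.13 between implied length and log2 fold change and -0.51 between implied length and standard error, both as descriptions over genes.

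Copies of ribosomal protein genes with tissue-restricted roles were near absent. Rpl3l, the striated muscle form, had 2, 1 and 0 counts in Ad-Dyrk1b and 3, 0 and 0 in Ad-EGFP. Rpl39l had 2, 0 and 0 against 0, 0 and 1, and Rpl10l, the testis form, had 0 counts in all 6 libraries. None of these 3 passed the filter on low counts, so the edgeR test reported did not include them. All their values were at or below the limit of 3 counts. Their parents were abundant. Rpl3, near the peptidyl transferase centre, had 366, 319 and 395 FPKM in Ad-Dyrk1b and 299, 309.8 and 359.7 in Ad-EGFP (log2 fold change 0.24 ± 0.12, edgeR adjusted p = 0.196). Rpl7, parent of Rpl7l1, had 371, 320.1 and 360.4 FPKM against 307, 283 and 347 (0.25 ± 0.11, edgeR adjusted p = 0.174). Rpl22 and its copy Rpl22l1, which can replace it, were both measured. Rpl22 had 152, 116 and 129.8 FPKM against 106, 96.4 and 134 (0.26 ± 0.12, edgeR adjusted p = 0.169). The copy Rpl22l1 had 92.1, 60.95 and 76.15 FPKM against 79.3, 63.2 and 78.8 (0.13 ± 0.14, edgeR adjusted p = 0.582), and both genes overlapped between the groups. Rps4x, the X-linked small-subunit gene, had 415, 340.0 and 417 FPKM against 301, 305.5 and 381 (0.33 ± 0.12, edgeR adjusted p = 0.0991).

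Rpl10, among the last proteins to join the large subunit, may share reads with a near-identical copy. Its counts were 5331, 5821 and 5504 in Ad-Dyrk1b and 3905, 4182 and 4824 in Ad-EGFP, and differed by 0.34 ± 0.12 in log2 units (edgeR adjusted p = 0.0758). The row named Rpl10-ps3, a pseudogene left out by the rule, held 58.5% of the counts of the pair, with 8478, 7284 and 7462 against 6713, 5321 and 6502. The counting rule for reads that match both rows is unknown here, and the level of Rpl10 is uncertain. The sum of both rows was 723, 654.4 and 725.0 CPM in Ad-Dyrk1b and 592.0, 543.1 and 653.7 in Ad-EGFP, so Ad-Dyrk1b replicate 2 lay just above Ad-EGFP replicate 3. GENCODE M21 lists 292 pseudogenes named for 60 of the 82 genes, 23 of them for Rps12 alone, so reads of other members could be divided in the same way. Rps12, a small-subunit protein, had 487, 350.2 and 432 FPKM against 306, 272 and 397.5 (0.46 ± 0.15, edgeR adjusted p = 0.0590).

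Of the further genes with roles outside the ribosome, none passed the test. Rps6, the substrate of the S6 kinases, had 666, 513.5 and 641 FPKM in Ad-Dyrk1b and 491, 472 and 587 in Ad-EGFP (log2 fold change 0.31 ± 0.12, edgeR adjusted p = 0.122). Rpl5 and Rpl11, which with 5S RNA bind and block Mdm2, had estimates of 0.25 ± 0.11 (edgeR adjusted p = 0.155) and 0.22 ± 0.12 (edgeR adjusted p = 0.253). The FPKM of Rpl5 was 317, 268 and 303 against 229.7, 258 and 285, and that of Rpl11 was 296, 247 and 289.8 against 266.5, 212 and 278. Rps3, which also acts in DNA repair and NF-kB signalling, had 148, 118 and 142 FPKM against 137, 112 and 145 (0.18 ± 0.13, edgeR adjusted p = 0.395). Rps27a, made as a fusion with ubiquitin, had 419, 298 and 368 FPKM against 288, 244 and 361 (0.37 ± 0.15, edgeR adjusted p = 0.124). In FPKM Rps6, Rpl5, Rpl11, Rps3 and Rps27a all overlapped between the groups. In TMM-scaled CPM the groups were apart for Rpl5 and Rpl11 and overlapped for Rps6, Rps3 and Rps27a. The genes sit on 19 chromosomes, with most on chromosome 7 (14), 17 (8) and 11 (7). Between their annotated start and end, 30 of the 82 carry 58 small nucleolar RNA genes, whose products guide modification of ribosomal RNA, and the median log2 fold change was 0.33 for these 30 and 0.25 for the 49 tested genes without one, as a description.

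Genes that work with the ribosomal proteins, or serve the mitochondrial ribosome, are described by list. Rack1, a scaffold on the small subunit, rose by 0.42 ± 0.11 (edgeR adjusted p = 0.0264), from 209, 206 and 239.9 FPKM in Ad-EGFP to 289, 249.8 and 289 in Ad-Dyrk1b. Fau, made as a fusion of a ubiquitin-like protein with a ribosomal protein, had 0.28 ± 0.15 (edgeR adjusted p = 0.252). Of 20 translation factors and partners with TOP messages, 2 rose and 0 fell, with a median of 0.12: Eef1b2, an exchange factor for elongation (0.47 ± 0.13, edgeR adjusted p = 0.0371), and Pabpc1, the poly(A)-binding protein (0.39 ± 0.11, edgeR adjusted p = 0.0322). Of 30 ribosome assembly genes 1 rose, the helicase Ddx21 (0.33 ± 0.09, edgeR adjusted p = 0.0379), and 0 fell, with a median of 0.06. Among 12 genes of RNA polymerase I, which makes ribosomal RNA, edgeR, DESeq2 and limma-voom each called 0 in either direction, and the median was -0.11. At an unadjusted p under 0.05 edgeR had 1 lower, the initiation factor Rrn3 (-0.25 ± 0.10, edgeR adjusted p = 0.132), DESeq2 had 0 and limma-voom 2. Of 78 mitochondrial ribosomal proteins, 0 rose and 2 fell, Mrpl50 (-0.50 ± 0.10, edgeR adjusted p = 0.00761) and Mrpl39 (-0.39 ± 0.11, edgeR adjusted p = 0.0333), with a median of -0.03. These shares stand beside 7.36% of all tested genes called higher and 4.81% called lower. Differences between these lists and the ribosomal proteins were not tested.

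Mxd4 among the regulators, and Mdm4 and Cdkn1a of the p53 axis, had larger changes than any ribosomal protein gene. Of 19 regulators, 0 rose and 3 fell, with a median log2 fold change of -0.08. Beside this list and the p53 axis stand 7.36% of all tested genes called higher and 4.81% called lower. Mxd4, an antagonist of Myc, had 5.99, 6.06 and 6.25 FPKM in Ad-Dyrk1b and 11.9, 14.45 and 14.1 in Ad-EGFP and fell by 1.06 on the log2 scale (SE 0.11, edgeR adjusted p = 7.75e-05). Mlst8, a subunit of the mTOR complexes, and Sp1, a factor that binds GC boxes, fell by 0.51 ± 0.14 (edgeR adjusted p = 0.0374) and by 0.41 ± 0.11 (edgeR adjusted p = 0.0290). Myc itself did not pass (0.17 ± 0.15, edgeR adjusted p = 0.516). Of 6 genes of the p53 axis that free ribosomal proteins act on, 4 fell: Mdm4 (-0.79 ± 0.13, edgeR adjusted p = 0.00228), Cdkn1a (-0.75 ± 0.11, edgeR adjusted p = 0.000931), Ccng1 (-0.42 ± 0.12, edgeR adjusted p = 0.0346) and Mdm2 (-0.40 ± 0.10, edgeR adjusted p = 0.0233). Cdkn1a, the cell cycle inhibitor p21, had 79.0, 78.3 and 73.7 FPKM in Ad-Dyrk1b and 123, 142 and 150.2 in Ad-EGFP, with no overlap. Of the 13 genes called in these lists, only Mxd4, Mrpl50, Cdkn1a and Mdm4 were still called without each library in turn. Rack1, Eef1b2 and Ccng1 were called in 2 of the 6 such fits, Pabpc1, Sp1, Mlst8, Mrpl39 and Mdm2 in 1, and Ddx21 in 0.

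**Figure D5:**
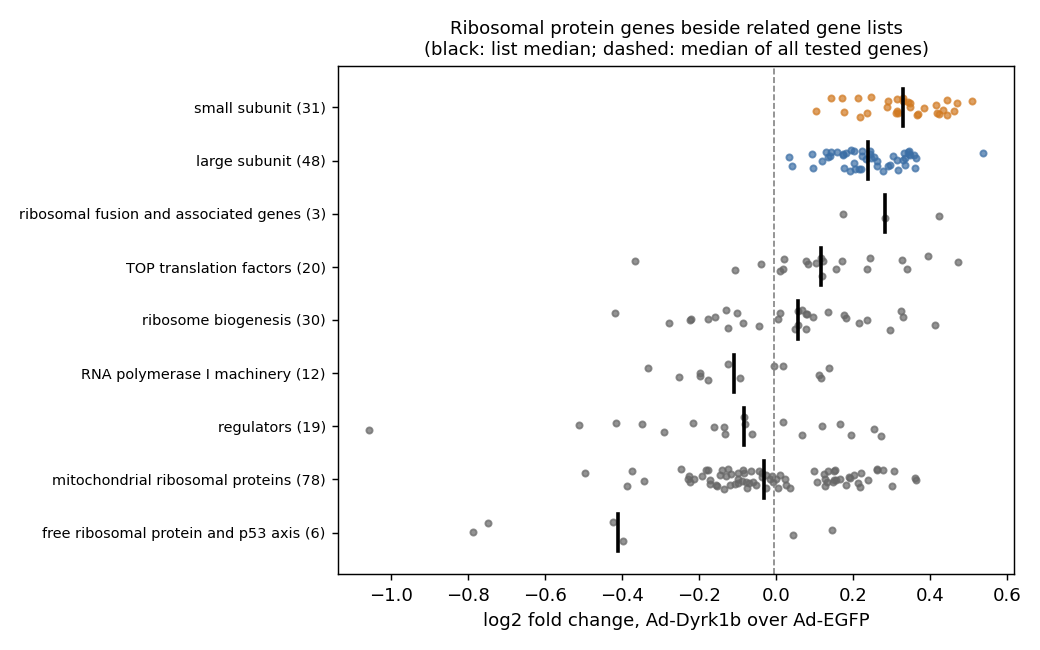
Log2 fold change (Ad-Dyrk1b over Ad-EGFP, horizontal axis) of each tested gene by list, with the number of tested genes in brackets, black bars for list medians and a dashed line for the median of all tested genes (-0.005). The small-subunit (median 0.33) and large-subunit (0.24) genes lie wholly to the right of 0, while the mitochondrial ribosomal proteins spread around it (-0.03) and 4 genes of the p53 axis, at -0.40 to -0.79, lie to its left.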

How the data were processed

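Liver mRNA was sequenced from 2 groups of 3 libraries (NEBNext Ultra kit, Illumina NovaSeq, per the labels' protocols). The submitters' processing notes name mm10 as genome build and DESeq2, without its version. The aligner, the counter, its strand setting and the annotation were not given in the sources used here. Raw counts for every gene in each library were deposited, as the file headers show, together with FPKM values made by the authors, scaled to a gene length and library size. The table also held the authors' log2 ratio of mean FPKM, a p-value and its adjusted value, per the file headers.

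The filter of edgeR 4.0.16 in R 4.3.3 (filterByExpr with its minimum count of 10 and minimum total of 15 counts) kept 13201 genes. The groups were compared by edgeR's robust quasi-likelihood test on the counts with TMM factors, two-sided, with Benjamini-Hochberg adjustment over all tested genes and a threshold of 0.05. Standard errors were derived from the fold change and its F statistic. Called genes had an adjusted p under 0.05. Depth was 17326516 to 20024888 counts per library, and limits from it cover counting error only. Of the fits, only the edgeR test was tried on simulated data. Genes were drawn there independently, with larger changes than those of the ribosomal protein genes. The simulation thus does not cover small changes in genes that vary together by library. Promoters came from RefSeq (GRCm38.p6) and gene coordinates from GENCODE M21, in which all 82 identifiers were found. Marker and pathway genes came from hand-written lists.

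Genes described one by one were those called higher or lower (otherwise the 6 with the smallest p in a direction), the 5 highest and 5 lowest by mean FPKM, copies with their parents, members with roles outside the ribosome, and called genes of the lists. Genes named beside these, such as Rps12, Rpl29, Rpl15, Rps14, Rps15 and Rps21, were chosen after their values were seen. Some genes are counted but not reported here by name. The genes and lists were chosen with earlier results of these data known. Alternatives were DESeq2 1.42.0, limma-voom and limma-trend (limma 3.58.1, pseudocounts 1 and 0.1 on FPKM), other scaling factors, filters, a replicate block and each library left out.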

Additional observations from a re-analysis of the deposited data

How the results depend on the processing

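The count of ribosomal protein genes called higher depended on the fit. It was 4 in the edgeR test reported (7.36% of all tested genes called higher) and 18 with DESeq2 (8.18%). With no filter on low counts it was 9 (5.93%), and with RLE factors 6 (7.58%). Upper-quartile factors gave 3, total-count scaling 1, and limma-voom and a minimum count of 50 each gave 4, with no share over all genes given here. It was 0 in all 3 limma-trend fits of FPKM. It was also 0 with scaling to ribosomal protein counts, which by construction takes out the shared shift (38 estimates above 0 and 41 below). Leaving out each library gave 0 to 7. No fit called a ribosomal protein gene lower, though 2 of the 79 had negative estimates with total-count scaling. With a library left out, the median log2 fold change ran from 0.19 without Ad-EGFP replicate 2 to 0.38 without Ad-EGFP replicate 3. With total-count scaling the median was 0.21, and the median of all genes moved to -0.09. With scaling to ribosomal protein counts the median was -0.006. In the edgeR test reported it was 0.24 over the shorter and 0.29 over the longer genes, a split added after the data were seen. The ratio of shares of counts was 1.09 to 1.24 with a library left out. Over all genes, 972 were called higher and 635 lower. Total-count scaling called 694 higher and 1051 lower, so the split between higher and lower calls turned. The limma-trend fits gave 366 higher and 394 lower (pseudocount 1), 417 and 457 (pseudocount 0.1), and 521 and 724 (pseudocount 1, mean FPKM 1 or more), and leaving out each library gave 612 to 800 and 294 to 461. Without Ad-EGFP replicate 2, 10 of the 79 estimates were below 0. Of the genes described one by one, and leaving aside scaling to ribosomal protein counts, the estimates that changed sign were those of Rpl39 (-0.039 with total counts, -0.024 in the 3 fits of FPKM, and -0.11 to 0.17 with a library left out, lowest without Ad-EGFP replicate 2) and of Rpl7l1 (-0.048 with total counts, and -0.043 to 0.0998 with a library left out, also lowest without Ad-EGFP replicate 2). The cause was not tested. Leaving out a library also leaves fewer samples.

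With the replicate number as a block, 25 ribosomal protein genes were called higher, among them the 4 above, of 1109 genes called higher and 774 lower. Deviations of same-numbered libraries from their group means correlated at 0.02, 0.17 and 0.11 over all tested genes. Not all were above 0.1, and the numbers were not taken to pair the samples. With 3 libraries per group these deviations sum to 0 within a group, so the correlations cannot decide whether samples were paired. Different-numbered libraries gave -0.21 to 0.08. Over the tested ribosomal protein genes alone, same-numbered libraries gave 0.36, 0.33 and -0.001, and different-numbered ones -0.48 to 0.30.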

Other observations

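Genes whose names stand close to the ribosomal protein genes, but which the rule left out, had estimates in both directions. Rpl36al, a copy of Rpl36a that also codes for a large-subunit protein, had 218, 154 and 165 FPKM in Ad-Dyrk1b replicates 1, 2 and 3 and 201, 145 and 236 in Ad-EGFP, and differed by -0.04 ± 0.17 in log2 units (edgeR adjusted p = 0.907). Rps27l, a copy of Rps27 that p53 is known to induce, had 233, 198 and 197 FPKM against 275, 202 and 279 (-0.19 ± 0.13, edgeR adjusted p = 0.374). In both the groups overlapped. The pseudogene row Rpl10-ps3 had 0.30 ± 0.12 (edgeR adjusted p = 0.130). Rps23rg1, a copy of Rps23 by name, fell by 0.88 ± 0.24 on the log2 scale (edgeR adjusted p = 0.0337), with 2.65, 2.66 and 1.83 FPKM in Ad-Dyrk1b and 5.07, 5.52 and 3.60 in Ad-EGFP. With each library left out in turn it was called in 1 of 6 fits, the one without Ad-EGFP replicate 3. Of the genes with Rps6k names, none passed the test. Estimates were above 0 for Rps6ka1 (0.17), Rps6ka2 (0.61) and Rps6ka3 (0.06), among others, and the smallest p was that of Rps6kb2, with 9.48, 8.13 and 8.95 FPKM in Ad-Dyrk1b and 11.8, 12.6 and 11.8 in Ad-EGFP, without overlap (-0.35 ± 0.12, edgeR adjusted p = 0.0777). These genes were picked after their values were seen.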
